A study of Mus musculus with 16 samples.

Results

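The genes described here encode the matrix metalloproteinases (Mmp), their tissue inhibitors (Timp) and the ADAM-type proteases with thrombospondin motifs (Adamts) together with the Adamts-like proteins (Adamtsl). They were chosen by symbol alone, as every gene named Mmp plus a digit, Timp plus a digit, or Adamts, which gave 51 of the 52636 genes in the deposited count table: 23 Mmp, 4 Timp, 19 Adamts and 5 Adamtsl genes. The libraries are RNA-seq of mouse endothelial cells sorted from liver, lung and heart as live cells that were CD45 negative, CD31 positive and VE-cadherin positive. Control libraries carry the genotype Wild Type and the others are double knockouts of Erg and Fli1, transcription factors of the ETS family that bind endothelial enhancers. There were 3 control and 3 knockout-labelled libraries each from liver and lung, and 2 of each from heart, which makes 16. The labels enter the same tamoxifen protocol for all libraries and give collection at day 10 after it. The sources used here give neither the Cre line and its promoter, nor the sex and age of the mice, nor whether the libraries of a group come from separate animals, so p-values measure the spread between these libraries, which may be partly technical.

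Mmp proteins are zinc-dependent endopeptidases made as inactive precursors. They cut collagens, laminins and other matrix proteins, and those anchored in the cell membrane act at the cell surface. Timp proteins block the active site, and Adamts proteases cut a narrower set of substrates such as procollagen propeptides, versican and von Willebrand factor. In endothelium these systems are known for opening the basement membrane during sprouting and for shaping the matrix that holds the vessel wall.

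Expression was taken as 1 CPM or more in 2 or more libraries. CPM is the count divided by the library's total, scaled by edgeR's TMM factor, in units of 1000000. By that rule 41 of the 51 genes were expressed: 16 of 23 Mmp, all 4 Timp, 16 of 19 Adamts and all 5 Adamtsl genes. In all 16 libraries 17 of them reached 1 CPM. The 10 genes below the rule were Mmp1a, Mmp1b, Mmp10, Mmp13, Mmp20, Mmp21, Mmp27, Adamts16, Adamts19 and Adamts20. Mmp1b, Mmp10 and Mmp20 had no count in any library, and Mmp1a had 4 counts over all 16. Mmp13, a collagenase, had 78 counts over all libraries and Adamts20 had 192. Part of the silent genes are neighbours: 10 Mmp genes lie within 427 kb of chromosome 9 (GRCm38, 7272514 to 7699585), and 4 of those 10, Mmp3, Mmp7, Mmp8 and Mmp12, were expressed.

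Levels of different genes are compared only as RPKM, which is CPM per kilobase of merged exons. In liver controls the highest mean level was that of Timp3, an inhibitor that binds to the matrix, at 103 ± 8.32 RPKM (SD, n = 3). It was followed by Mmp14, the membrane-type collagenase also called MT1-MMP, at 83.7 ± 6.35 RPKM and by Adamts1, a versican-cleaving protease, at 66.3 ± 35.7 RPKM. The mean ± SD intervals of Timp3 and Mmp14 did not overlap, whereas those of Mmp14 and Adamts1 overlapped. In lung controls Adamts1 reached 209 ± 79.1 RPKM and Timp2, an inhibitor that also takes part in pro-Mmp2 activation, 145 ± 18.8 RPKM, a difference smaller than the SD of Adamts1. Timp3 at 42.6 ± 5.098, Mmp28 at 38.6 ± 8.91 and Mmp15 at 38.002 ± 14.05 RPKM came next in lung and did not differ beyond their spread. In heart controls (n = 2) Adamts1 stood at 259 ± 30.98, Timp3 at 132 ± 48.3, Mmp15 at 85.6 ± 25.9 and Timp4 at 64.8 ± 52.9 RPKM. Adamts1 was above the other 3 in both heart controls, while the intervals of those 3 overlapped.

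**Figure D1:**
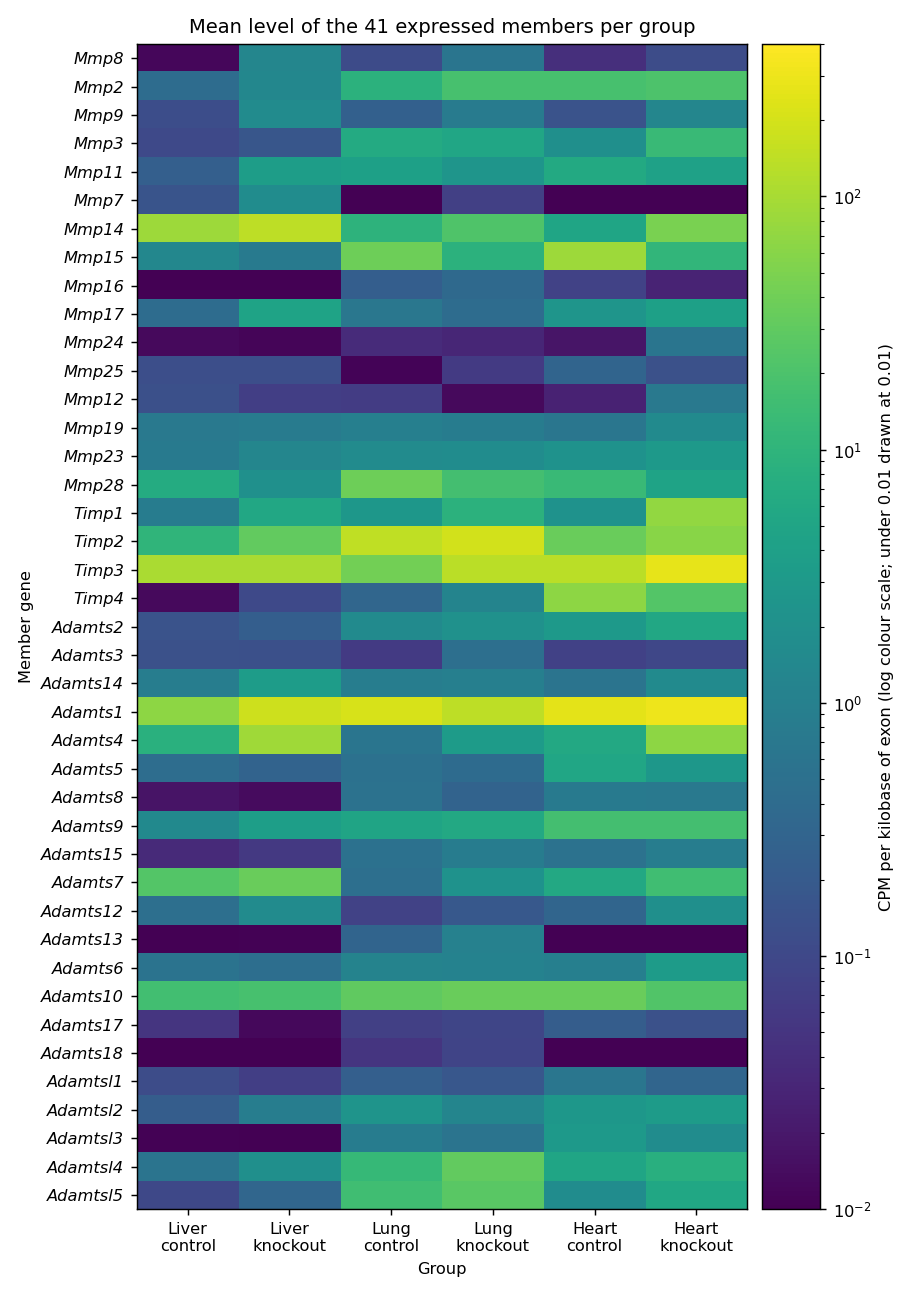
Mean level of the expressed members in the 6 groups, on the scale of RPKM (CPM per kilobase of exon). Timp3, Mmp14 and Adamts1 lead in control liver, Adamts1 and Timp2 in control lung, and Adamts1 in control heart.

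Library totals ran from 30226340 to 41449054 counts. Of the deleted genes, Erg had 337 to 371 CPM in controls and 131 to 165 CPM in knockout-labelled liver libraries (log2 −1.31, adjusted p = 1.54e-05) and 258 to 276 CPM in controls and 164 to 224 CPM in knockout-labelled lung (log2 −0.52, adjusted p = 0.0231). In heart the Erg difference missed the threshold (log2 −0.47, adjusted p = 0.0538). Fli1 did not fall in any tissue and rose in lung (log2 0.69, adjusted p = 0.0131), and counts of a whole gene do not measure a deleted exon, so the groups are called knockout-labelled throughout. The 12 endothelial markers checked summed to 16366 to 16801 CPM in heart controls, the lowest of the control groups. Knockout-labelled heart had 10097 to 11673 CPM. In liver the sums were 20679 to 22854 CPM in controls and 13219 to 19493 CPM in knockout-labelled libraries. In lung they were 19548 to 19914 and 12359 to 15664 CPM. Of the 12 markers 6 fell in each tissue, with 1 higher in lung. Erg, itself a deleted gene, is 1 of the 12 and is among those that fell in liver and lung. Markers of other cell types were present and some moved with the knockout label. The 6 platelet and megakaryocyte markers summed to 30.6 to 40.5 CPM in liver controls and 174 to 258 CPM in knockout-labelled liver, with 3 higher, and to 12.8 to 15.6 and 57.3 to 60.8 CPM in heart, with 2 higher. The 12 leukocyte markers summed to 508 to 583 CPM in lung controls and 86.6 to 244 CPM in knockout-labelled lung, with 1 lower. Lyz2 alone had 432, 534 and 452 CPM in lung controls and 91.5, 164 and 44.9 CPM in knockout-labelled lung. The leukocyte sum in lung therefore mainly follows that gene and says little about the other markers of the list. The 8 hepatocyte markers summed to 774 to 2683 and 617 to 966 CPM in liver, with 3 lower. The 8 cardiomyocyte markers summed to 152 to 236 and 129 to 153 CPM in heart, with 3 lower. Tnnt2, the largest part of the knockout-labelled heart sums, went the other way without being called. It had 29.2 and 49.9 CPM in heart controls and 98.1 and 77.2 CPM in knockout-labelled heart. Myh6, the largest part in the heart controls, had 52.4 and 84.9 CPM there and 25.2 and 26.7 CPM in knockout-labelled heart. In heart the 15 fibroblast, stellate cell and pericyte markers summed to 1523 to 1665 CPM in controls. Knockout-labelled heart had 1938 to 2213 CPM, with 1 higher and none lower. Rgs5, the largest part of the control sums, went the other way without being called. It had 526 and 608 CPM in heart controls and 138 and 254 CPM in knockout-labelled heart. Col3a1 had 234 and 135 CPM in heart controls and 545 and 477 CPM in knockout-labelled heart. The 6 smooth muscle markers summed to 261 to 290 CPM in heart controls and 310 to 406 CPM in knockout-labelled heart, with 1 higher. Myh11, the largest part of these control sums, had 174 and 146 CPM there and 106 and 149 CPM in knockout-labelled heart. Acta2 had 99.9 and 102 CPM in heart controls and 187 and 235 CPM in knockout-labelled heart. The part of these lists in the changes of the members was not tested. Further marker values stand beside some of the members. In bulk RNA, fewer cells of a type and less RNA per cell cannot be told apart.

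The knockout-labelled libraries of each tissue were compared with that tissue's controls in 1 edgeR quasi-likelihood fit over all libraries, with Benjamini-Hochberg adjustment over the 19646 genes tested and a threshold of 0.05. The filter on low counts kept 45 of the 51 genes, and all counts of calls below refer to those 45. In liver 14 rose, beside 9.54% of all genes tested, and 1 fell, beside 9.87%. In lung 8 rose and 3 fell, beside 4.35% of all genes that rose and 4.11% that fell. In heart 7 rose and 4 fell, beside 10.2% and 9.09%. Median log2 changes of the 45 were 0.62 in liver, 0.27 in lung and 0.70 in heart, beside 0.02, −0.02 and 0.01 over all genes tested. A total of 24 of the 45 genes changed in at least 1 tissue. The shares of all genes tested that were called in at least 1 tissue, or in 2 or 3, were not computed. This count and the lists that follow therefore have no background beside them. Mmp14 and Timp1 rose in all 3 tissues, Mmp28 fell in all 3, and Mmp15 fell in lung and heart. Adamts12, Adamts7, Adamtsl4, Mmp2 and Mmp9 rose in 2 tissues each. Mmp11 rose in liver and fell in lung.

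**Figure D2:**
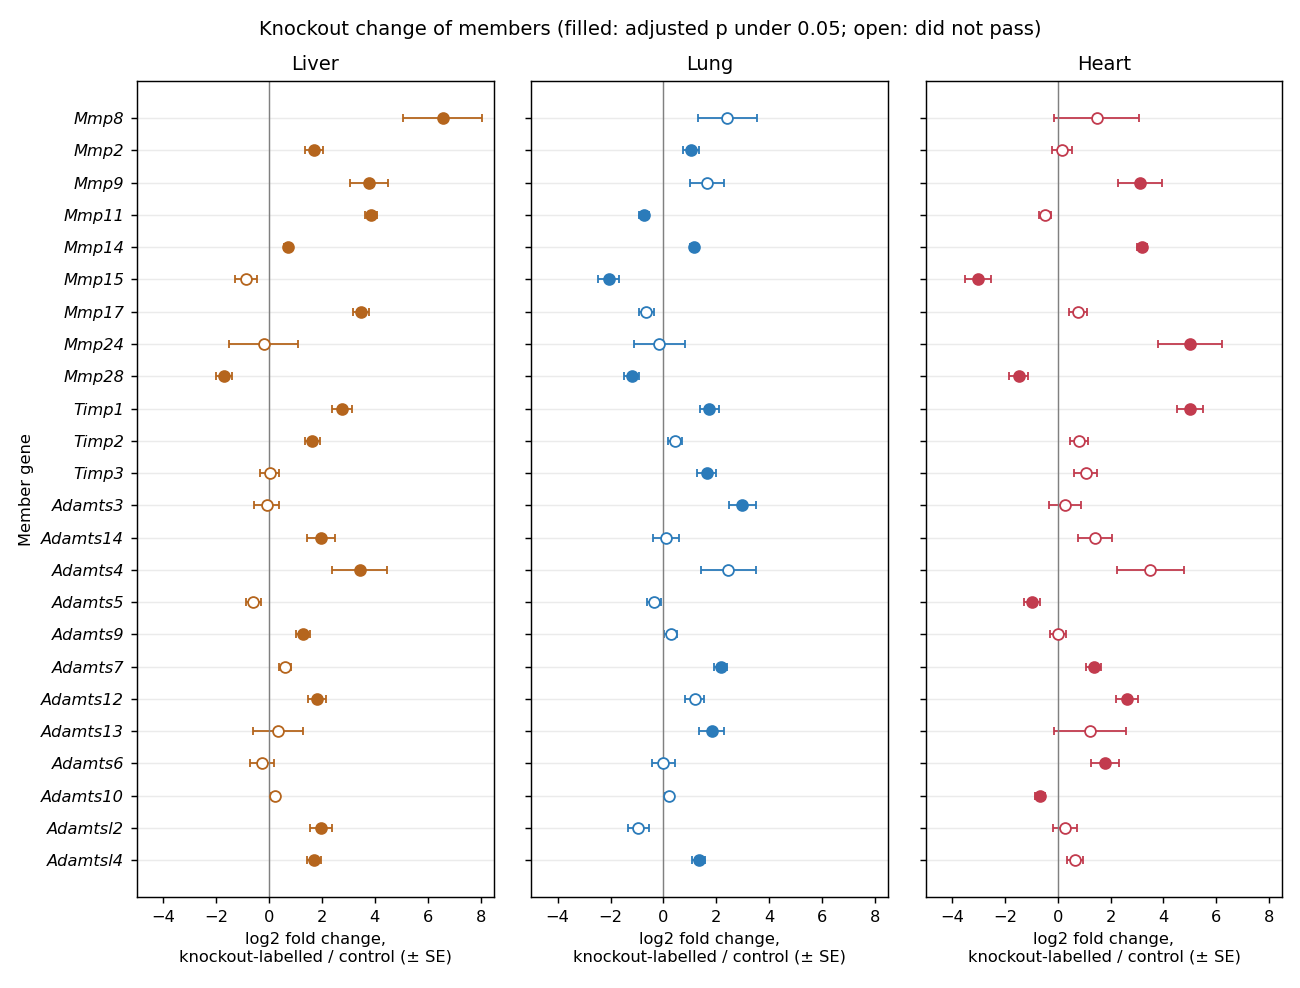
Log2 difference between knockout-labelled and control libraries for the 24 members called in at least 1 tissue, in liver, lung and heart, with standard errors; filled points passed an adjusted p of 0.05. Liver has 14 filled points above 0 and 1 below, lung 8 and 3, and heart 7 and 4.

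The stretch upstream of the start is shown for Mmp14, Timp1 and Mmp28, which changed one way in all 3 tissues, and for Mmp15, the other member that fell in more than 1 tissue. Each window covers bases 250 to 51 before the RefSeq transcription start, read 5′ to 3′ on the gene's strand (GRCm38.p6). The windows are chr14:54431348-54431547 on the plus strand, chrX:20869916-20870115 on the plus strand, chr8:95352046-95352245 on the plus strand and chr11:83463091-83463290 on the minus strand. Capitals mark matches on either strand to CAGGAA, a hexamer that holds the ETS core GGAA.
Mmp14: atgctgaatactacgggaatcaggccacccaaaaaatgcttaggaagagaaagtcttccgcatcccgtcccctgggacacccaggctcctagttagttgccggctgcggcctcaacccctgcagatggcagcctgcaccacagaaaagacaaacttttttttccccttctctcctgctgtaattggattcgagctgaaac
Timp1: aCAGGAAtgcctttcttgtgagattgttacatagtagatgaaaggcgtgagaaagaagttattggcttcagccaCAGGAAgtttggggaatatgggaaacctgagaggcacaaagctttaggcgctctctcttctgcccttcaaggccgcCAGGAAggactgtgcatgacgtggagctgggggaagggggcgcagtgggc
Mmp15: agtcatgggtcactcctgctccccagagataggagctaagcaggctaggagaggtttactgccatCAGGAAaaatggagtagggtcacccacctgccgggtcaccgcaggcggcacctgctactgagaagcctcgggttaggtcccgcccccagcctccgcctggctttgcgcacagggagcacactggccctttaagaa
Mmp28: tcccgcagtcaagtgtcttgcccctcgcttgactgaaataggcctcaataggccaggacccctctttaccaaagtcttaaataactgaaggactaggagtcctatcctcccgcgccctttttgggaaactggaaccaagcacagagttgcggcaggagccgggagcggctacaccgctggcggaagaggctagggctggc
Timp1 held 3 such matches, at 249 to 244, 176 to 171 and 100 to 95 bases before the start, and Mmp15 held 1, at 185 to 180 bases. Neither the other ETS hexamer searched, CCGGAA, nor the AP-1 motif TGANTCA was found in these 4 windows, searched on both strands. The shorter core GGAA was not searched or marked. It also stands in lower case, among others in the Mmp14 and Mmp28 windows. Of 32841 RefSeq promoters cut to the same 200 bases, 20.98% held CAGGAA, 8.02% CCGGAA and 5.58% TGANTCA. Among the 36 members matched in that table the shares were 25.0%, 2.78% and 13.9%. A member counted if any of its promoters matched, whereas the shares over all are per promoter, so the measures differ. The members with TGANTCA were Mmp1a, Mmp1b, Mmp7, Mmp10 and Mmp20, of which only Mmp7 was expressed. Either ETS hexamer occurred in 27.8% of the 36 members, counted per gene, and in 27.6% of all promoters. A match is a string of letters and not evidence of binding.

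Of the 6 membrane-type Mmp genes, 2 rose in liver, 1 rose and 1 fell in lung, and 2 rose and 1 fell in heart. Over all genes tested 9.54% rose in liver, 4.35% rose and 4.11% fell in lung, and 10.2% rose and 9.09% fell in heart. With 6 genes, such counts say little about the subfamily. Mmp14 (ENSMUSG00000000957, chromosome 14, 54431612 to 54445364, plus strand) encodes the transmembrane collagenase that activates pro-Mmp2. Liver controls had 514, 527 and 456 CPM, knockout-labelled ones 814, 794 and 845 CPM (log2 change 0.71 ± 0.144 SE, adjusted p = 0.00316). In lung the values were 64.05, 47.4 and 58.03 CPM for controls and 110.0, 149 and 122 CPM in knockout-labelled libraries (log2 change 1.17 ± 0.146 SE, adjusted p = 0.000367). The groups did not overlap in either tissue. Heart controls had 31.2 and 29.2 CPM against 312 and 244 CPM (log2 change 3.201 ± 0.192 SE, adjusted p = 1.17e-06), a 9.197-fold ratio of means. The heart began lowest and changed most, and the knockout-labelled heart libraries lay below every liver control and above every lung library.

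Mmp15 (ENSMUSG00000031790, chromosome 8, 95352268 to 95375080, plus strand), a close relative of Mmp14 also anchored by a transmembrane segment, went the other way. Lung controls had 286, 135 and 194 CPM, knockout-labelled ones 41.05, 70.6 and 34.7 CPM (log2 change −2.07 ± 0.394 SE, adjusted p = 0.00532). Heart controls had 561 and 363 CPM against 41.5 and 72.7 CPM (log2 change −3.02 ± 0.4998 SE, adjusted p = 0.00112). In both tissues the lowest control stood above the highest knockout-labelled library. Liver libraries were far lower, at 10.3, 4.39 and 7.38 CPM for controls and 4.35, 2.38 and 5.36 CPM in knockout-labelled libraries, and the groups overlapped (log2 change −0.88 ± 0.414 SE, adjusted p = 0.162). The sum of 8 lung epithelial markers moved with Mmp15 in lung, being 1971 to 3187 CPM in controls and 334 to 561 CPM in knockout-labelled libraries, with 4 of the 8 lower. In heart, where Mmp15 also fell, the same sum was 5.19 to 6.34 CPM in controls and 104 to 157 CPM in knockout-labelled libraries, with 5 of 8 higher. The part of these markers in the lung result was not tested.

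Mmp17 (ENSMUSG00000029436, chromosome 5, 129584169 to 129611099, plus strand), which is held at the surface by a lipid anchor, rose in liver. Liver controls had 2.48, 3.57 and 2.52 CPM, knockout-labelled ones 38.8, 19.02 and 36.8 CPM, with no overlap (log2 change 3.46 ± 0.308 SE, adjusted p = 5.68e-06). Lung had 3.899, 4.38 and 4.79 CPM for controls and 3.83, 1.87 and 2.59 CPM in knockout-labelled libraries (log2 −0.65, adjusted p = 0.201). Heart libraries had 14.4 and 18.2 CPM in controls and 25.4 and 30.04 CPM in knockout-labelled libraries (log2 0.76, adjusted p = 0.135). Mmp24, a membrane-type protease best known from neurons, rose in heart, from 0.116 and 0.0554 in controls to 3.11 and 2.56 CPM (log2 change 4.997 ± 1.22 SE, adjusted p = 0.0119). Its mean stayed under 0.2 CPM in the other 4 groups. It met the expression rule of 1 CPM only through the 2 knockout-labelled heart libraries. Counting it as expressed therefore rests on the same values as its call. That call was lost without control 1 (adjusted p = 0.0697), control 2 (0.104) or knockout-labelled 1 (0.0544). Exons of Mmp24 share 637 bases with the opposite-strand gene BC029722, which had 14.02 to 27.02 CPM in all libraries, and whether counting used strand is not given. Mmp16 and Mmp25 stayed under 4 CPM in every library and were not called in any tissue by edgeR, while DESeq2 called Mmp16 lower in heart (adjusted p = 0.049).

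**Figure D3:**
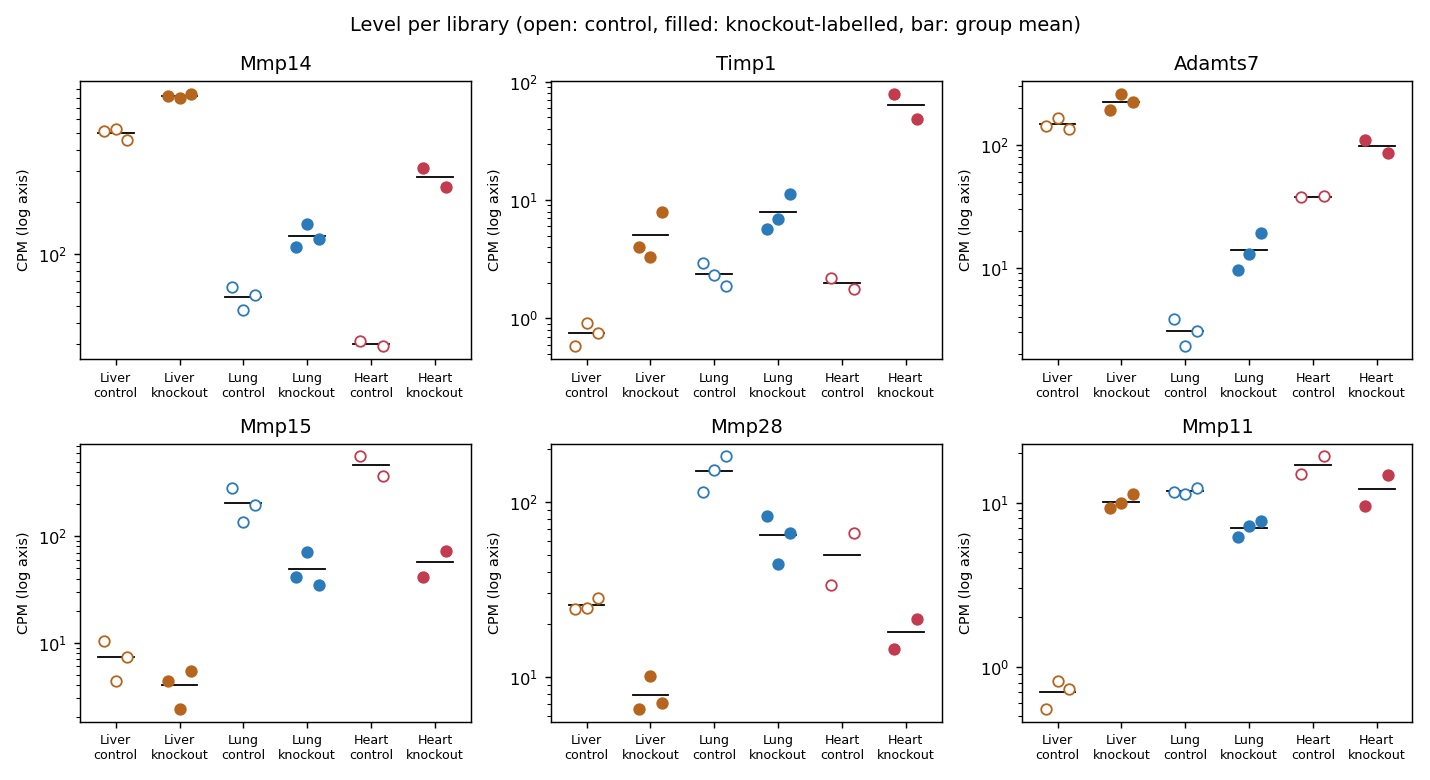
Level in each library of Mmp14, Timp1, Adamts7, Mmp15, Mmp28 and Mmp11 in CPM on log axes; open points are controls, filled points knockout-labelled libraries and bars group means. Knockout-labelled libraries lie above the controls of their tissue for Mmp14 and Timp1 and below them for Mmp28 in all 3 tissues.

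Both gelatinases, which degrade denatured collagen and type IV collagen of the basement membrane, rose in liver. Mmp2 (ENSMUSG00000031740, chromosome 8, 92827291 to 92853420, plus strand) had 1.79, 0.579 and 1.88 CPM in liver controls and 3.58, 6.697 and 3.605 CPM in knockout-labelled liver libraries (log2 change 1.69 ± 0.344 SE, adjusted p = 0.00329). With liver libraries fitted alone its adjusted p was 0.0527. In lung it had 34.1, 27.9 and 29.7 CPM for controls and 78.6, 48.7 and 61.1 CPM in knockout-labelled libraries (log2 change 1.04 ± 0.299 SE, adjusted p = 0.047). The lung groups did not overlap, yet the call was lost when control 1, 2 or 3 or knockout-labelled 1 or 3 was left out, with adjusted p of 0.0927 to 0.146. Heart had 62.3 and 60.3 CPM in controls and 64.5 and 72.7 CPM in knockout-labelled libraries, separate but close (log2 0.16, adjusted p = 0.805). Mmp2 is abundant in fibroblasts, and the summed fibroblast, stellate cell and pericyte markers were 405 to 722 CPM in lung controls and 554 to 1004 CPM in knockout-labelled lung. Of these 15 markers 1 was called higher in lung and none lower, and they did not move together. Rgs5 had 20.3, 19.6 and 14.9 CPM in lung controls and 94.1, 86.8 and 219 CPM in knockout-labelled lung. Pdgfrb went the other way, from 21.5, 15.5 and 13.2 to 8.42, 8.86 and 11.02 CPM. The part of these markers in the Mmp2 lung result was not tested.

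Mmp9 (ENSMUSG00000017737, chromosome 2, 164940780 to 164955850, plus strand) had 0.395, 0.647 and 0.243 CPM in liver controls and 10.6, 3.102 and 3.96 CPM in knockout-labelled liver libraries (log2 change 3.78 ± 0.705 SE, adjusted p = 0.00185). Every knockout-labelled liver library was above every control, and the highest was knockout-labelled 1; without it the log2 change was 3.04. In heart the values were 0.203 and 0.859 CPM in controls and 5.89 and 3.38 CPM in knockout-labelled libraries (log2 change 3.11 ± 0.832 SE, adjusted p = 0.0188). This call was lost without control 1 (adjusted p = 0.142) or knockout-labelled 1 (0.101), and the log2 change was 2.44 without control 1 and 4.49 without control 2. Lung knockout-labelled libraries had 1.504, 2.64 and 4.61 CPM against 0.993, 0.388 and 1.39 CPM in controls, which did not pass (log2 1.65, adjusted p = 0.139).

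Among the collagenases, which cut triple-helical collagen, Mmp8 (ENSMUSG00000005800, chromosome 9, 7558456 to 7568485, plus strand), known as neutrophil collagenase, rose in liver. Its liver controls held 3 counts in all and the knockout-labelled libraries 297. Per library these were 0.0527, 0.03403 and 0 CPM for controls and 8.12, 1.19 and 0.128 CPM in knockout-labelled libraries. The ratio of CPM was 102, with an exact 95% counting interval of 34.7 to 500 that covers counting error only, and the fitted change had an adjusted p of 0.00682. Knockout-labelled 1 carried most of it: the fitted log2 change of 6.56 became 4.33 without that library and 7.32 without control 1. With liver libraries fitted alone, the filter on low counts removed Mmp8 and it was not tested. The 10 neutrophil markers summed to 3.504, 3.57 and 5.22 CPM in liver controls and 132, 27.4 and 7.11 CPM in knockout-labelled 1, 2 and 3, with 5 of the 10 higher. The order of the knockout-labelled libraries in this sum is that of Mmp8. In heart, 8 of 12 leukocyte markers rose, with sums of 29.4 to 58.7 CPM in controls and 193 to 323 CPM in knockout-labelled libraries, beside the rises of Mmp9 and Timp1. In liver none of the 12 was called, at 179.6 to 464 and 157 to 264 CPM. The part of neutrophils and other leukocytes in the Mmp8, Mmp9 and Timp1 results was not tested.

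**Figure D4:**
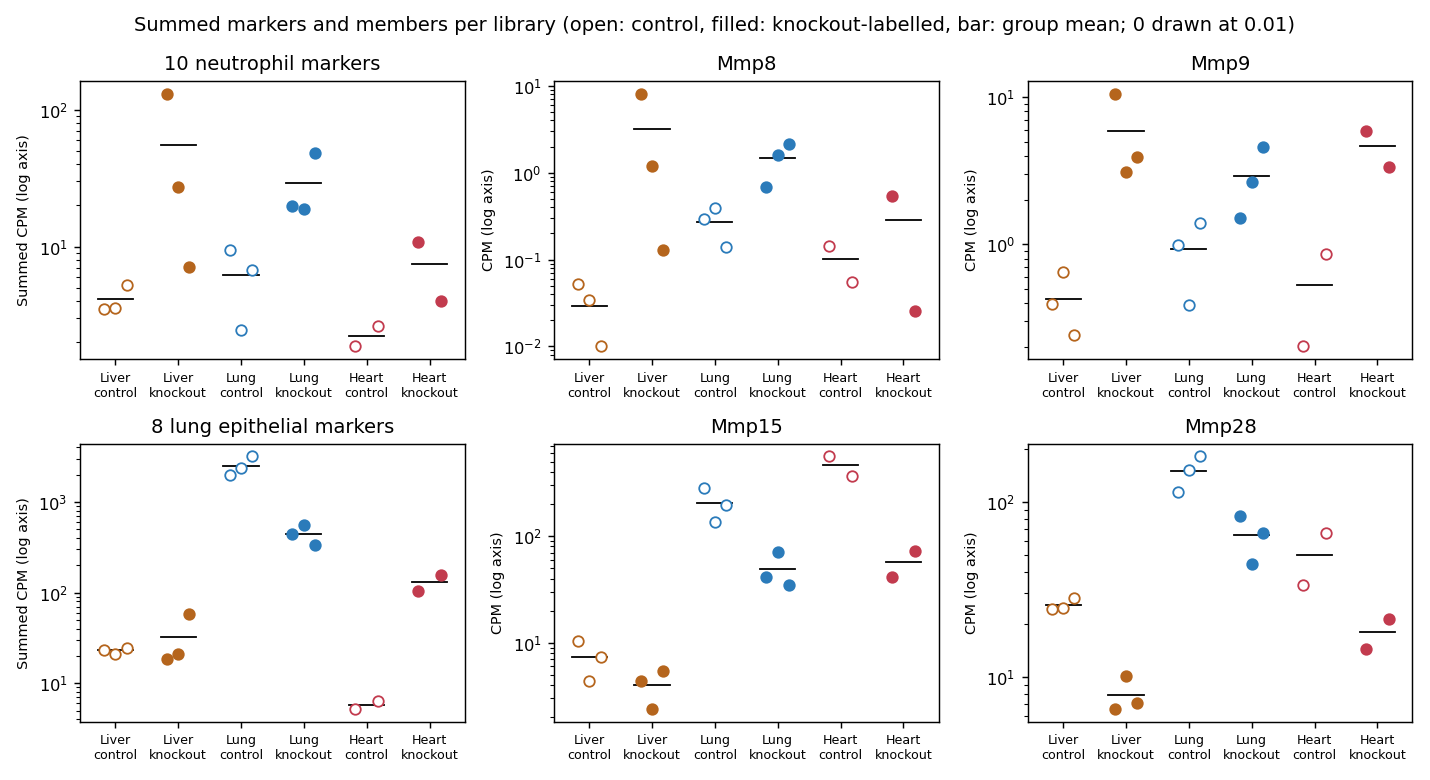
Summed CPM of 10 neutrophil and 8 lung epithelial markers in each library beside Mmp8, Mmp9, Mmp15 and Mmp28 in CPM, all on log axes, with 0 drawn at 0.01; open points are controls, filled points knockout-labelled libraries and bars group means. Knockout-labelled liver library 1 is highest for the neutrophil sum, Mmp8 and Mmp9, and the epithelial sum is lower in knockout-labelled lung and higher in knockout-labelled heart.

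Stromelysins cut proteoglycans and laminin, and Mmp11 (ENSMUSG00000000901, chromosome 10, 75923222 to 75936496, minus strand) is the one that furin activates inside the cell. Liver controls had 0.553, 0.817 and 0.729 CPM, knockout-labelled ones 9.25, 9.91 and 11.2 CPM (log2 change 3.86 ± 0.223 SE, adjusted p = 1.44e-07). In lung it fell from 11.5, 11.3 and 12.2 in controls to 6.19, 7.18 and 7.67 CPM (log2 change −0.74 ± 0.1899 SE, adjusted p = 0.0284). Neither pair of groups overlapped. Mmp11 shares 155 exon bases with the opposite-strand gene Chchd10, which had 1.19 to 5.71 CPM. It was lost in lung when control 1, 2 or 3 or knockout-labelled 1 or 2 was left out, with adjusted p of 0.0654 to 0.0998, and also with no filter on low counts (adjusted p = 0.0571). Heart had 14.9 and 19.1 CPM for controls and 9.56 and 14.6 CPM (log2 −0.49, adjusted p = 0.157). Mmp3 had a mean of 3.55 CPM in heart controls and 23.6 CPM in knockout-labelled heart, just outside the threshold (log2 2.73, adjusted p = 0.0509). It passed with no filter (adjusted p = 0.0177) and with heart libraries alone (adjusted p = 0.00203), and not with DESeq2 (adjusted p = 0.149).

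Mmp28 (ENSMUSG00000020682, chromosome 11, 83440768 to 83463071, minus strand), a secreted protease called epilysin, fell in each tissue. Liver controls had 24.4, 24.6 and 28.2 CPM, the knockout-labelled ones 6.54, 10.1 and 7.08 CPM (log2 change −1.6996 ± 0.296 SE, adjusted p = 0.00115). Lung controls had 114, 153 and 182 CPM against 83.6, 44.2 and 66.8 CPM (log2 change −1.21 ± 0.284 SE, adjusted p = 0.0178). Heart controls had 33.4 and 66.7 CPM against 14.4 and 21.5 CPM (log2 change −1.48 ± 0.354 SE, adjusted p = 0.0107). No tissue showed overlap between its groups. Leaving out lung control 2 (adjusted p = 0.0524), control 3 (0.0805), knockout-labelled 2 (0.0685) or knockout-labelled 3 (0.0516) ended the lung call, and leaving out heart control 2 (adjusted p = 0.146) or knockout-labelled 1 (0.11) ended the heart call. The lung epithelial sum, which was lower in knockout-labelled lung and higher in knockout-labelled heart, was 20.997 to 24.6 CPM in liver controls and 18.7 to 58.6 CPM in knockout-labelled liver, with 2 of the 8 markers lower; its part in the Mmp28 results was not tested. Mmp28 shares 466 exon bases with 1700020L24Rik on the opposite strand, which ranged from 1.53 to 43.8 CPM.

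The remaining expressed Mmp genes were not called by edgeR. Mmp19 ran from 1.30 to 5.68 CPM and Mmp23 from 1.31 to 8.90 CPM over all libraries. Mmp12, the macrophage elastase, averaged 0.203 CPM in heart controls and 5.22 CPM in knockout-labelled heart (log2 4.68, adjusted p = 0.0601), and that rise passed with DESeq2 (adjusted p = 0.0157), with no filter (adjusted p = 0.0272) and with heart libraries alone (adjusted p = 0.0164). Mmp7, the matrilysin, reached 1 CPM in 2 libraries only, both of them knockout-labelled liver, whose group had 1.26, 0.435 and 3.796 CPM; its liver rise passed with no filter (adjusted p = 0.0496) but not with edgeR's filter (log2 3.39, adjusted p = 0.0951) or DESeq2 (adjusted p = 0.134).

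Of the 4 inhibitors, Timp1 (ENSMUSG00000001131, chromosome X, 20870166 to 20874735, plus strand), the weakest of them against membrane-type proteases, rose in all tissues. Liver controls had 0.5796, 0.919 and 0.759 CPM, the knockout-labelled ones 4.03, 3.305 and 7.94 CPM (log2 change 2.76 ± 0.387 SE, adjusted p = 0.000223). Lung controls had 2.93, 2.33 and 1.87 CPM against 5.65, 6.93 and 11.3 CPM (log2 change 1.74 ± 0.351 SE, adjusted p = 0.00764). Heart controls had 2.18 and 1.77 CPM against 79.3 and 48.1 CPM (log2 change 5.01 ± 0.485 SE, adjusted p = 3.48e-05), a ratio of means of 32.3. The groups were separate in each tissue, and both knockout-labelled heart libraries were above every other library.

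Timp2 (ENSMUSG00000017466, chromosome 11, 118301069 to 118355740, minus strand), which links pro-Mmp2 to Mmp14, rose in liver, from 36.2, 46.2 and 36.8 in controls to 65.1, 121 and 185 CPM (log2 change 1.64 ± 0.276 SE, adjusted p = 0.000885). Lung, where it was highest, had 484, 622 and 595 CPM for controls and 698, 859 and 737 CPM (log2 0.43, adjusted p = 0.375), and heart had 121 and 152 CPM in controls and 232 and 247 CPM in knockout-labelled libraries (log2 0.81, adjusted p = 0.103). The liver groups did not overlap, and their knockout-labelled libraries stayed below every lung library.

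Timp3 (ENSMUSG00000020044, chromosome 10, 86300372 to 86349506, plus strand), which inhibits Adamts and ADAM proteases as well as Mmp proteins, rose in lung. Lung controls had 308, 391 and 341 CPM, the knockout-labelled ones 1293, 844 and 1109.9 CPM, with no overlap (log2 change 1.64 ± 0.363 SE, adjusted p = 0.0126). Without control 1 (adjusted p = 0.0565) or control 3 (0.0553) the lung call was lost. In liver the values were 759, 886 and 864 CPM for controls and 529.7, 491 and 1529 CPM in knockout-labelled 1, 2 and 3 (log2 0.02, adjusted p = 0.99). Knockout-labelled 1 and 2 were below every liver control and 3 was above every one. Without knockout-labelled 3 the liver difference turned to log2 −0.71 with an adjusted p of 0.0475. That library also had the highest fibroblast, stellate cell and pericyte sum of its group: the 3 libraries had 37.3, 34.5 and 179 CPM, against 52.2 to 71.3 CPM in controls. Their part in the Timp3 values was not tested. Heart libraries had 797 and 1353 CPM in controls and 2177 and 2299 CPM in knockout-labelled libraries (log2 1.06, adjusted p = 0.11). Timp4, the inhibitor known for expression in heart, varied within groups: heart controls had 161 and 602 CPM and knockout-labelled heart 101 and 175 CPM (log2 −1.47, adjusted p = 0.347).

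Procollagen N-proteinases remove the amino-terminal propeptide of fibrillar collagens, and Adamts3 also takes part in the activation of Vegfc, the lymphatic growth factor. Adamts3 (ENSMUSG00000043635, chromosome 5, 89677087 to 89883334, minus strand) rose in lung, from 0.194, 0.332 and 0.474 in controls to 1.92, 2.82 and 3.204 CPM, with no overlap (log2 change 2.98 ± 0.503 SE, adjusted p = 0.00239). Its means in liver were 0.756 and 0.712 CPM and in heart 0.427 and 0.519 CPM. It reached 1 CPM in 3 libraries, all of them knockout-labelled lung, so counting it as expressed rests on the same values as its call. Adamts14 (ENSMUSG00000059901, chromosome 10, 61197112 to 61273438, minus strand) rose in liver, from 4.11, 6.704 and 3.16 in controls to 8.73, 10.7 and 35.3 CPM (log2 change 1.97 ± 0.519 SE, adjusted p = 0.0161). Its liver groups were separate, but knockout-labelled 3 was far above the other two. The call was lost without control 1 (adjusted p = 0.0583), control 3 (0.0716) or knockout-labelled 3 (0.101), the log2 change was 1.06 without knockout-labelled 3, and liver libraries fitted alone gave an adjusted p of 0.0564. Knockout-labelled liver 3 also had the highest stromal marker sums of its group: for fibroblasts, stellate cells and pericytes the 3 libraries had 37.3, 34.5 and 179 CPM (52.2 to 71.3 in controls), and for 6 smooth muscle markers 2.96, 6.87 and 51.1 CPM (2.04 to 12.6 in controls). The part of these markers in the Adamts14 result was not tested. Adamts2 was not called in any tissue and was highest in knockout-labelled heart, at 52.7 ± 1.82 CPM (SD, n = 2).

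Adamts1, Adamts4, Adamts5, Adamts8, Adamts9, Adamts15 and Adamts20 cut versican, aggrecan or related proteoglycans. Of these 7 genes 2 rose in liver, none was called in lung and 1 fell in heart. Over all genes tested 9.54% rose in liver, 4.35% rose and 4.11% fell in lung, and 9.09% fell in heart. With 7 genes, such counts say little about the group. Adamts4 (ENSMUSG00000006403, chromosome 1, 171250421 to 171260637, plus strand) had 75.4, 23.3 and 20.4 CPM in liver controls and 224, 63.98 and 991 CPM in knockout-labelled libraries (log2 change 3.42 ± 1.03 SE, adjusted p = 0.0316). It was the only called member whose groups overlapped, since knockout-labelled 2 lay below control 1. Leaving out control 2 (adjusted p = 0.11), control 3 (0.116) or knockout-labelled 3 (0.176) ended the call, liver libraries fitted alone gave an adjusted p of 0.0615, and the log2 change was 4.31 without control 1 and 1.86 without knockout-labelled 3. Knockout-labelled 3, the highest for Adamts4, is the library with the raised fibroblast and smooth muscle sums given for Adamts14, and their part was not tested here either. Heart controls had 38.5 and 18.3 CPM and knockout-labelled heart libraries 445 and 198 CPM, a difference that missed the threshold in spite of separate groups (log2 3.499, adjusted p = 0.0691). That difference passed with DESeq2 (adjusted p = 0.0345), with no filter (adjusted p = 0.0262) and with heart libraries fitted alone (adjusted p = 0.00432).

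Adamts9 (ENSMUSG00000030022, chromosome 6, 92772699 to 92943492, minus strand), a secreted relative of Adamts20, rose in liver, from 29.3, 23.9 and 16.5 in controls to 62.1, 45.9 and 61.8 CPM, with no overlap (log2 change 1.29 ± 0.262 SE, adjusted p = 0.00329). In heart its means were 251 CPM in controls and 253 CPM in knockout-labelled libraries (95% interval −0.601 to 0.62 for the log2 difference). Its exons share 1381 bases with A730049H05Rik on the opposite strand, at 0.121 to 14.8 CPM. Adamts5 (ENSMUSG00000022894, chromosome 16, 85856173 to 85901828, minus strand), a main aggrecanase, fell in heart from 62.9 and 53.5 in controls to 34.2 and 25.3 CPM (log2 change −0.97 ± 0.318 SE, adjusted p = 0.0473). This call was lost without any 1 of the 4 heart libraries, with adjusted p of 0.0936 to 0.232. The groups were separate all the same. Adamts1 (ENSMUSG00000022893, chromosome 16, 85793827 to 85803113, minus strand), which had the highest mean RPKM in lung and heart controls, was not called in any tissue by edgeR. Liver controls had 569, 224 and 261 CPM, the knockout-labelled ones 919, 436 and 1447 CPM (log2 1.41, adjusted p = 0.075), a rise that passed with DESeq2 (adjusted p = 0.0232) and with no filter on low counts (adjusted p = 0.0368). In lung it had 1545, 1063 and 709 CPM in controls and 1050.0, 868 and 271 CPM in knockout-labelled libraries (log2 −0.5995, adjusted p = 0.54), and heart libraries 1489.9 and 1258 CPM in controls and 1884 and 1359.8 CPM in knockout-labelled libraries (log2 0.24, adjusted p = 0.839). The groups overlapped in all 3 tissues.

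**Figure D5:**
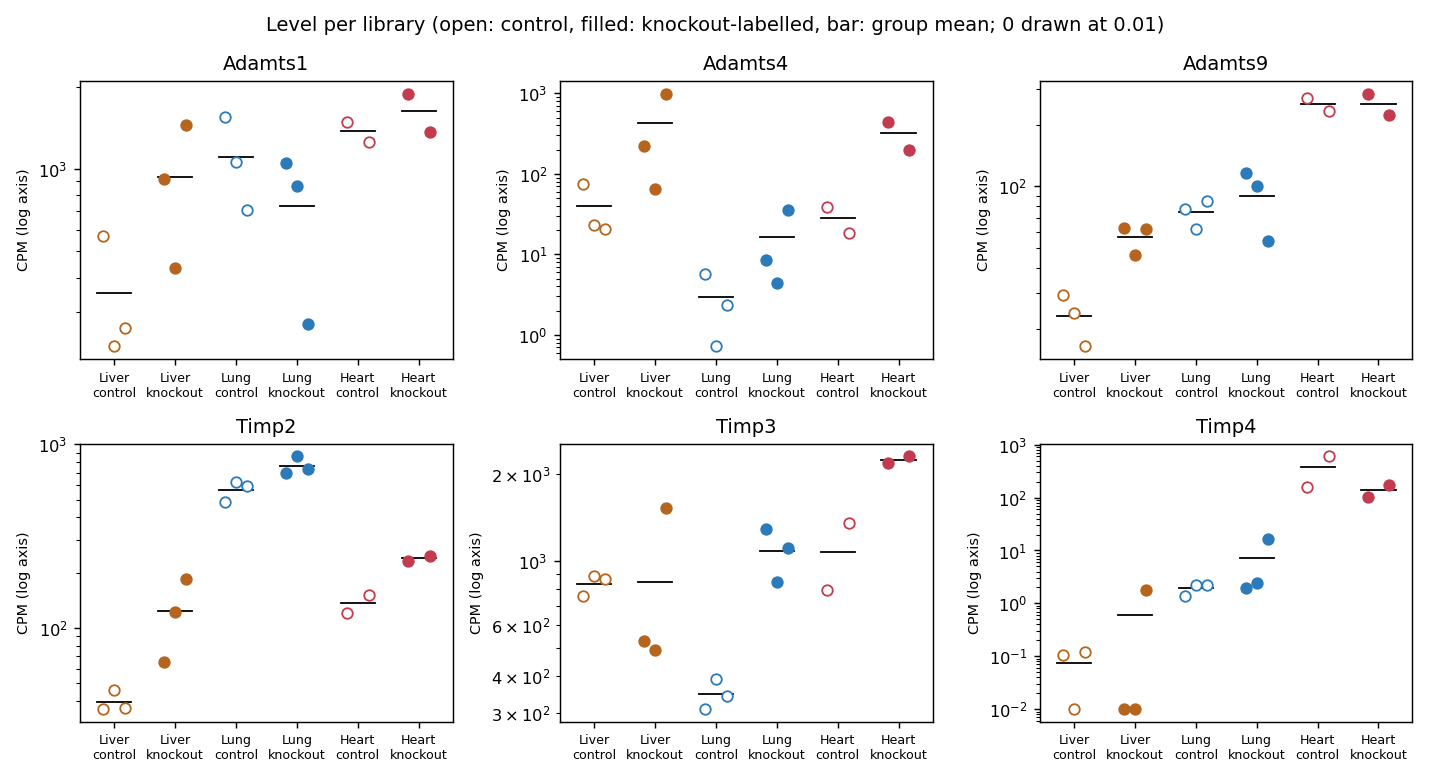
Level in each library of Adamts1, Adamts4, Adamts9 and Timp2 to Timp4 in CPM on log axes, with 0 drawn at 0.01; open points are controls, filled points knockout-labelled libraries and bars group means. Knockout-labelled liver library 3 is the highest liver library for Adamts1, Adamts4 and the 3 Timp genes.

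Adamts7 and Adamts12 form a pair that cuts cartilage oligomeric matrix protein. Adamts7 (ENSMUSG00000032363, chromosome 9, 90163069 to 90208071, plus strand) rose in lung, from 3.83, 2.299 and 3.07 in controls to 9.51, 12.9 and 19.2 CPM (log2 change 2.17 ± 0.243 SE, adjusted p = 0.00017). In heart it went from 37.3 and 38.2 in controls to 108 and 85.2 CPM (log2 change 1.36 ± 0.274 SE, adjusted p = 0.00392). Liver had the highest levels, 143, 164 and 134 CPM for controls and 190.0, 259 and 221 CPM in knockout-labelled libraries, which did not overlap and did not pass (log2 0.61, adjusted p = 0.0694). It shares 122 exon bases with Tbc1d2b on the opposite strand, which had 67.5 to 318 CPM. Adamts12 (ENSMUSG00000047497, chromosome 15, 11064790 to 11349231, plus strand) rose in liver, from 5.796, 5.48 and 4.19 in controls to 17.9, 20.003 and 16.2 CPM (log2 change 1.81 ± 0.333 SE, adjusted p = 0.00172). In heart the values were 4.09 and 2.96 CPM in controls and 26.1 and 16.96 CPM in knockout-labelled libraries (log2 change 2.61 ± 0.421 SE, adjusted p = 0.000939), and both pairs of groups were separate. Lung means were 0.874 and 1.99 CPM (log2 1.18, adjusted p = 0.0581), which passed with DESeq2 (adjusted p = 0.00928) and with no filter (adjusted p = 0.0344).

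Adamts13 (ENSMUSG00000014852, chromosome 2, 26973416 to 27009628, plus strand) cuts von Willebrand factor and so limits platelet adhesion. It was expressed in lung, where controls had 0.896, 1.63 and 1.895 CPM, the knockout-labelled ones 6.87, 5.89 and 2.94 CPM without overlap (log2 change 1.83 ± 0.484 SE, adjusted p = 0.032). Liver and heart libraries stayed at 0.1 CPM or less. Leaving out control 1, 2 or 3 or knockout-labelled 1 or 2 ended the lung call, with adjusted p of 0.0698 to 0.126. The 6 platelet and megakaryocyte markers summed to 26.5 to 28.2 CPM in lung controls and 62.2 to 98.5 CPM in knockout-labelled lung, with 3 of them higher, and their part in the result was not tested.

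Adamts6 and Adamts10 are related proteases linked to fibrillin microfibrils, and both were called in heart. Adamts6 (ENSMUSG00000046169, chromosome 13, 104287835 to 104496695, plus strand) rose from 5.42 and 9.502 in controls to 28.8 and 22.9 CPM (log2 change 1.79 ± 0.543 SE, adjusted p = 0.0338). Adamts10 (ENSMUSG00000024299, chromosome 17, 33524204 to 33553782, plus strand) fell from 313 and 285 in controls to 210.0 and 168 CPM (log2 change −0.66 ± 0.192 SE, adjusted p = 0.0279). Both pairs were separate, but with 2 libraries a group both calls depended on single libraries. Adamts6 was not called without any 1 of the 4, with adjusted p of 0.0629 to 0.212, and Adamts10 was not called without control 1 (adjusted p = 0.152), control 2 (0.0731) or knockout-labelled 2 (0.174). In liver and lung Adamts10 ranged from 131 ± 11.2 CPM in liver controls to 288 ± 52.8 CPM in knockout-labelled lung (SD, n = 3) and was not called. Adamts17 and Adamts18 reached 1 CPM in 4 and 2 libraries and stayed under 2 CPM.

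Adamtsl proteins resemble Adamts proteases but lack the protease domain, and several bind fibrillin. Adamtsl2 (ENSMUSG00000036040, chromosome 2, 27079379 to 27108981, plus strand) rose in liver, from 1.69, 1.497 and 2.19 in controls to 7.67, 7.86 and 5.61 CPM (log2 change 1.97 ± 0.413 SE, adjusted p = 0.00402). In lung controls it had 35.3, 10.7 and 11.5 CPM and in knockout-labelled lung 7.52, 13.6 and 8.79 CPM (log2 −0.94, adjusted p = 0.158). Adamtsl4 (ENSMUSG00000015850, chromosome 3, 95676201 to 95687917, minus strand) rose in liver, from 2.16, 1.804 and 3.55 in controls to 5.28, 10.03 and 9.22 CPM (log2 change 1.705 ± 0.263 SE, adjusted p = 0.000459). It also rose in lung, from 50.9, 53.8 and 49.8 in controls to 109, 125 and 155 CPM (log2 change 1.33 ± 0.2399 SE, adjusted p = 0.00373). The 3 called pairs of groups were separate. Adamtsl1, Adamtsl3 and Adamtsl5 were not called, and Adamtsl5 was highest in lung, at 71.9 ± 30.3 CPM in controls and 123 ± 56.7 CPM in knockout-labelled libraries.

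The knockout effect itself was compared between tissues with an interaction term. It differed between lung and liver for 5 of the 45 genes tested, beside 6.20% of all genes, between heart and liver for 5, beside 8.32%, and between heart and lung for 2, beside 6.40%. These comparisons share libraries: the liver libraries enter the first and the second. For Mmp14 the log2 effects of 0.71 in liver, 1.17 in lung and 3.201 in heart made heart larger than liver by 2.49 (adjusted p = 4.42e-05) and than lung by 2.03 (adjusted p = 0.000387). For Timp1 heart was larger than liver by 2.25 (adjusted p = 0.028) and than lung by 3.27 (adjusted p = 0.00443). The Timp1 difference from liver was lost without liver control 2 (adjusted p = 0.0681), liver control 3 (0.0603), heart control 1 (0.0823), heart control 2 (0.109) or heart knockout-labelled 1 (0.113).

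Mmp11 and Mmp17 set liver apart. The Mmp11 effect gave −4.59 for lung minus liver (adjusted p = 1.11e-06) and −4.35 for heart minus liver (adjusted p = 9.47e-06). That of Mmp17 gave −4.11 for lung minus liver (adjusted p = 9.77e-05) and −2.701 for heart minus liver (adjusted p = 0.00271). Between lung and liver the effect also differed for Adamts3 (log2 3.08, adjusted p = 0.0168), Adamts7 (log2 1.56, adjusted p = 0.0111) and Adamtsl2 (log2 −2.92, adjusted p = 0.00722). Without lung control 1 the Adamtsl2 difference was −2.13. Adamts10 differed between heart and liver (log2 −0.89, adjusted p = 0.0407), a call that was lost without any 1 of 9 of the 10 libraries involved, with adjusted p of 0.0501 to 0.15.

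Control libraries of the tissues differed as well. Between control lung and control liver 23 of the 45 genes were higher in lung and 6 lower, where 47.0% of all genes differed. Between control heart and control liver 25 were higher in heart and 2 lower, where 47.6% of all genes differed. Between control heart and control lung 14 were higher in heart and 6 lower, beside 29.5% of all genes. Mmp14 and Adamts7 were higher in control liver than in both other tissues: Mmp14 had 499 ± 37.8 CPM in liver, 56.5 ± 8.45 in lung and 30.2 ± 1.41 in heart. Mmp15 followed the reverse order, at 7.35 ± 2.94, 205 ± 75.8 and 462 ± 139.8 CPM, and all 3 steps passed (log2 4.796, adjusted p = 1.2e-06; log2 5.97, adjusted p = 5.19e-07; log2 1.17, adjusted p = 0.048, for lung minus liver, heart minus liver and heart minus lung). The heart minus lung call of Mmp15 was lost without lung control 2 (adjusted p = 0.155), lung control 3 (0.115), lung knockout-labelled 1 (0.0573), heart control 1 (0.325) or heart control 2 (0.0618). Timp2 was highest in lung, at 567 ± 73.3 CPM against 39.7 ± 5.597 in liver and 136 ± 22.3 in heart. The fibroblast, stellate cell and pericyte sum was 52.2 to 71.3 CPM in liver, 405 to 722 in lung and 1523 to 1665 in heart controls; its part in these tissue differences was not tested.

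Genes that act with these proteases were taken from 3 lists. Of 26 regulators and partners of pericellular proteolysis 25 were tested: 8 rose and 1 fell in liver, 2 rose and 1 fell in lung, and 9 rose and none fell in heart. Of all genes tested 9.54% rose and 9.87% fell in liver, 4.35% and 4.11% in lung, and 10.2% and 9.09% in heart, and the lung counts of 2 and 1 of 25 are near those shares. Their median log2 change was 0.95 in liver, 0.19 in lung and 0.84 in heart. Plau, the urokinase that starts plasmin formation, rose in liver from 187 ± 22.5 to 1845 ± 683 CPM (log2 3.304, adjusted p = 1.67e-05), in lung (log2 2.7002, adjusted p = 0.000303) and in heart (log2 2.403, adjusted p = 0.00114). Furin, which cleaves the propeptides of Mmp14 and Mmp11, rose in liver (log2 0.96, adjusted p = 9.17e-05) and heart (log2 0.95, adjusted p = 0.000763), and in lung the value was log2 0.37, adjusted p = 0.0727. Bmp1, the procollagen C-proteinase, rose in liver from 3.73 ± 1.92 to 488 ± 72.8 CPM (log2 7.03, adjusted p = 1.29e-08).

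The ADAM list held 9 genes for membrane-bound relatives of the Adamts family, not all of which need be active proteases. Of these 9, 1 rose and 2 fell in liver, 2 rose in lung, and 4 rose and 2 fell in heart. The shares over all genes were 9.54% and 9.87% in liver, 4.35% and 4.11% in lung, and 10.2% and 9.09% in heart. The liver count of 1 of 9 higher is near its share. Their median log2 change was −0.13 in liver, −0.23 in lung and 0.66 in heart. Adam12 rose in liver (log2 2.19, adjusted p = 0.000172) and heart (log2 2.59, adjusted p = 0.000495), Adam15 fell in liver (log2 −1.07, adjusted p = 0.000221) and heart (log2 −0.95, adjusted p = 0.00295), and Adam23 rose in lung from 8.44 ± 2.83 to 200.2 ± 133 CPM (log2 4.57, adjusted p = 0.00029). Of 28 substrates 27 were tested: 8 rose and 4 fell in liver, 6 rose and none fell in lung, and 11 rose and 1 fell in heart, beside the same shares over all genes. The substrates' median log2 change was 0.14 in liver, 0.48 in lung and 0.97 in heart. Fbn1, the fibrillin that Adamts10 and Adamtsl proteins bind, rose in liver from 22.4 ± 5.89 to 163 ± 20.1 CPM (log2 2.86, adjusted p = 8.27e-06) and in heart from 203 ± 42.2 to 752 ± 32.2 CPM (log2 1.89, adjusted p = 0.00114). Vcan, the versican cut by Adamts1 and Adamts4, rose in lung from 3.98 ± 2.03 to 17.6 ± 10.8 CPM (log2 2.14, adjusted p = 0.018), a call lost without control 2 (adjusted p = 0.0677), control 3 (0.0579) or knockout-labelled 2 (0.0784). It also rose in liver (log2 2.12, adjusted p = 0.0271), which was lost without control 1 (adjusted p = 0.0568), control 2 (0.0723), control 3 (0.0976) or knockout-labelled 2 (0.0831), and in heart (log2 1.84, adjusted p = 0.0473), which was lost without control 2 (adjusted p = 0.284), knockout-labelled 1 (0.157) or knockout-labelled 2 (0.0978). Lama4, a basement membrane laminin chain, fell in liver from 384 ± 73.5 to 124 ± 15.4 CPM (log2 −1.63, adjusted p = 6.57e-06).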

How the data were processed

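Values are gene-level counts of reads, raw and as deposited by the authors, in 16 libraries. Alignment was to GRCm38 with STAR 2.7.6a after FastQC 0.11.5, per the submitters' processing notes. Counting, its use of strand and its annotation are not given in the sources used. Per the labels' protocols, libraries were made with either an unstranded or a stranded TruSeq kit, and which library had which is not given, so counts at overlapping opposite-strand exons are uncertain.

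Counts were tested with edgeR 4.0.16 (R 4.3.3): filterByExpr, with a minimum count of 10 and a total of 15, kept 19646 genes, TMM factors scaled the libraries, and 1 quasi-likelihood fit with a mean per group gave each contrast, with Benjamini-Hochberg adjustment and a threshold of 0.05. The standard error is the log2 change divided by the square root of F. RPKM used merged exons of GENCODE M21. Promoters came from RefSeq on GRCm38.p6, with the last 50 bases before the start left out. Motifs in the proteins were not searched. The fit was tested on simulated counts.

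Alternatives were relative-log-expression factors, no filter, DESeq2 1.42.0, a replicate block, each tissue alone and leaving out each library. Members, lists and tests were chosen with earlier results of these data known. A member is described library by library if it was expressed, passed 0.05 in a tissue or in a difference between tissues, and had a group mean of 2 CPM or more; other members are given by level. From each list up to 4 genes with the smallest adjusted p per tissue could be named. Results on some of these genes are not reported here.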

Additional observations from a re-analysis of the deposited data

Results flagged for a closer look

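The knockout effect differed between 2 tissues, by the interaction term of the fit, for 12 member and tissue pairs. Of the 45 members tested these were 5 for lung and liver, 5 for heart and liver and 2 for heart and lung. Over all genes tested 6.20%, 8.32% and 6.40% differed in these comparisons. For lung minus liver the log2 differences were 3.08 for Adamts3, 1.56 for Adamts7, −2.92 for Adamtsl2, −4.59 for Mmp11 and −4.11 for Mmp17. For heart minus liver they were −0.89 for Adamts10, −4.35 for Mmp11, 2.49 for Mmp14, −2.701 for Mmp17 and 2.25 for Timp1. For heart minus lung they were 2.03 for Mmp14 and 3.27 for Timp1. For Mmp11 the effects had opposite signs and each passed its own test, higher in knockout-labelled liver and lower in knockout-labelled lung. For Adamtsl2 the liver effect was 1.97 and the lung effect −0.94, and the lung effect did not pass on its own.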

How the results depend on the processing

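Leaving out 1 library at a time gave 13 to 17 called members in liver (15 with all libraries), 7 to 9 in lung (11) and 6 to 8 in heart (11). Differences of effect numbered 5 to 7 for lung against liver (5), 3 to 10 for heart against liver (5) and 2 to 3 for heart against lung (2), and control tissues differed for 26 to 31 members (29), 24 to 28 (27) and 13 to 21 (20) in lung against liver, heart against liver and heart against lung. Expressed members numbered 40 to 41 (41). Over all genes the calls in these fits fell as low as 917 in lung (1663 with all libraries), 1788 in heart (3786), 807 (1219), 711 (1635) and 467 (1257) for the 3 differences of effect, and 3467 (5800) for control heart against lung; each of these fits has 1 sample fewer. Heart libraries fitted alone called 23 members, 18 higher and 5 lower, and 3483 genes in all, 1949 higher and 1534 lower. The 12 added members were Adamts2, Adamts4, Adamts14, Adamtsl3, Adamtsl4, Adamtsl5, Mmp3, Mmp12, Mmp17, Mmp19, Timp2 and Timp3, with adjusted p of 0.00203 to 0.0451; liver alone added Adamts7 (0.0251) and lung alone Mmp8 (0.0332). DESeq2 called 8 members for lung against liver, 12 for heart against liver and 8 for heart against lung, and 2032, 2637 and 2119 genes in all. With no filter heart against lung had 5 members and 1311 genes in all. Deviations of same-numbered libraries from their group means correlated at −0.0797 to 0.24, so the numbers were not taken as pairs. A block on the replicate number called 17 members in liver by the numbers of titles and of descriptions, 11 and 10 in lung, and 15 and 14 in heart. It gave 4 (titles) and 3 (descriptions) for heart against lung. Over all genes the block called 3888 and 3898 in liver (3814 without it), 1814 and 1823 in lung, and 3976 and 3791 in heart. For heart against lung it called 1402 and 1391 genes. Under the block, Mmp2 in lung (adjusted p = 0.0557 and 0.0551) and Adamts5 in heart (0.0772, descriptions) missed the threshold. The block added Adamts1 (adjusted p = 0.0396 by titles and 0.0412 by descriptions) and Mmp7 (0.011 and 0.0108) in liver, Adamts19 in lung (0.0414, titles), and in heart Adamts4 (0.0175 and 0.0104), Mmp3 (0.0361 and 0.0374), Mmp13 (0.0254 and 0.0378), Mmp12 (0.0475, titles) and Timp3 (0.0389, descriptions). The cause of these shifts was not tested. Over 72 member changes, 810 alternative values held 740 with the same direction and side of the threshold, 52 past it only with all libraries or the chosen setting, 17 past it only under the alternative and 1 reversed. The reversed one was Timp3 in liver, which ran from log2 −0.71 without knockout-labelled liver 3 to 0.3001 without knockout-labelled liver 2. Heart groups of 2 limit precision, and depth limits members of a few counts.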
